A study of Mus musculus with 16 samples.

Results

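The 8 genes described here are chaperones of the endoplasmic reticulum (ER) and factors of the response to unfolded protein: *Calr*, *Calr4*, *Canx*, *Hspa5*, *Hsp90b1*, *Pdia3*, *Atf5* and *Ddit3*. They were chosen by symbol, as listed names that had to occur in both the count and the RPKM tables, and 8 of 8 did, among 24340 genes present in both. All 8 also passed the filter on low counts.

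Proteins that enter the ER are folded there by chaperones before they move to the cell surface. Calreticulin and calnexin hold glycoproteins by their sugars, BiP (*Hspa5*) and GRP94 (*Hsp90b1*) bind exposed stretches of unfolded chains, and PDIA3 forms disulfide bonds on glycoproteins handed over by the calreticulin and calnexin pair. When unfolded protein builds up, the unfolded protein response raises chaperones and, through the kinase PERK, the translation of factors such as ATF5. In olfactory neurons this pathway is known to take part in fixing the choice of 1 receptor gene, and *Atf5* is also needed for vomeronasal neurons to mature. *Calr4* is a calreticulin homologue known from vomeronasal neurons, where the general calreticulin is known to be scarce.

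RNA came from the vomeronasal organ (VNO), the paired organ that detects pheromones, of outbred mice of Hsd:ICR origin, 12 weeks old, at generation 88 of a selection experiment. The 4 HR lines (lines 3, 6, 7 and 8) were bred for high voluntary wheel running and the 4 Control lines (lines 1, 2, 4 and 5) were bred without selection. Each line gave 1 male and 1 female library, 16 in all, each from the pooled VNOs of 3 mice, so a line within a sex is 1 library. The pooled organ holds neurons, glands, blood vessels and other cells, and fewer cells of a type and less RNA per cell cannot be told apart in such a sample.

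Counts on genes ranged from 15998552 to 70875276 per library, with a median of 37366329. The neuron markers *Omp*, *Gnao1* and *Gnai2* were present in every library, with *Omp* at 1265 to 2600 CPM (counts relative to library size, scaled by TMM normalization). *Trpc2*, the channel of these neurons, had 0 counts in all 16 libraries but 259 to 417 RPKM, so its counts were not used as a check. The summed markers of gland cells ranged from 1323 to 178100 CPM, and 7 of 8 index tags served in both sexes. The authors describe 8 libraries in a single lane and do not say how the sexes were divided over lanes or runs. A batch that followed sex could not be told apart from sex.

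The sequences before the transcription start are shown first. The choice by symbol did not use them, but the element searched for is known from chaperone genes. Finding it in genes chosen as chaperones is therefore a description and no independent result. The ER stress element (ERSE) is the sequence through which ATF6 is known to raise chaperone genes, and it was searched as CCAAT, 9 bases of any kind and CCACG on both strands of 250 bases before to 50 after each RefSeq start (GRCm38.p6). It occurred in *Calr*, *Calr4*, *Canx*, *Hspa5* and *Hsp90b1*, and was not found in the windows of *Pdia3*, *Atf5* and *Ddit3*. Among 27025 genes with a window, 37 (0.137%) held it. The sites follow, read in the direction of the motif, with both fixed parts in capitals and the spacer in lower case.

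*Calr*, chr8:84847075-84847093: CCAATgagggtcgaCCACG
*Calr4*, chr4:109218238-109218256: CCAATggttggggaCCACG
*Canx*, chr11:50325800-50325818: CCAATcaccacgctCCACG
*Hspa5*, chr2:34772025-34772043: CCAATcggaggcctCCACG
*Hsp90b1*, the site farther from the start, chr10:86705638-86705656: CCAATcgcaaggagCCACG
*Hsp90b1*, the site nearer to the start, chr10:86705533-86705551: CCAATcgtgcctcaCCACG

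The site of *Hspa5* lay closest to its start, at bases -65 to -47. That of *Canx* lay at -145 to -127, that of *Calr* at -162 to -144 and that of *Calr4* at -175 to -157, and *Hsp90b1* held sites at -212 to -194 and at -107 to -89. The site of *Calr4* belongs to 1 of its 4 RefSeq starts, which lies upstream of the gene's start in GENCODE release M21 (chr4:109234485-109254571, plus strand). Windows of 1 chromosome, which holds none of the 8 genes, were not searched. The lists used below hold ER, stress and receptor trafficking genes. Of their 103 other genes with a window, 7 held the element: *Creld2*, *Derl3*, *Dnajc3*, *Ero1b*, *Pdia6*, *Syvn1* and, from the receptor trafficking list, *Adcy3*. The core of the UPR element (TGACGTGG, in 0.714% of genes) and the amino acid response element (TGATGNAA, in 4.511% of genes) matched in no window of the 8 genes. These are matches of letters in fixed windows, and no binding was measured.

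The windows of the 2 calreticulins are given in full because both genes hold the element. Their levels did not rise together over the 8 lines (*r* = -0.549, with -0.794 in males and -0.012 in females). Each window covers the 250 bases before the start on the strand of the gene. The fixed parts of the ERSE are in capitals, and here they stand on the opposite strand.

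*Calr*, chr8:84846932-84847181, minus strand: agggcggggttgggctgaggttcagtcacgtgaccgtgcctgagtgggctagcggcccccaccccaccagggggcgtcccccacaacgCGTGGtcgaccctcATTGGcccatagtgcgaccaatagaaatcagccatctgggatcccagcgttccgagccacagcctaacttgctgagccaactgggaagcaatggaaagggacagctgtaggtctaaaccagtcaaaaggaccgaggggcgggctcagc
*Calr4*, chr4:109218163-109218412, plus strand: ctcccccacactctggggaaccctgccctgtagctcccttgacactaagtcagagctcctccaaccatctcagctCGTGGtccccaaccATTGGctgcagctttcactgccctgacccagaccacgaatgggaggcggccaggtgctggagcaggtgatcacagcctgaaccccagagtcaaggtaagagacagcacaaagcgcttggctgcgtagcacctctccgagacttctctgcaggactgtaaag

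All 8 genes were abundant, between the 97.1 and the 99.9 percentile of genes by mean RPKM. Levels between genes were compared per length, as RPKM averaged over the male and the female library of each line. The male and female RPKM tables were made separately, so an average over both joins 2 scalings. *Atf5*, a transcription factor, was the most abundant at 1014 ± 238.9 RPKM (SD, n = 8 lines). The 3 chaperones *Hspa5* (638.9 ± 38.86), *Pdia3* (560.4 ± 55.2) and *Hsp90b1* (470.9 ± 25.98) followed. *Calr4* (346.4 ± 53.06) and *Calr* (285.6 ± 44.09) came next, then *Canx* (147.3 ± 8.84) and *Ddit3* (104.2 ± 16.7), which encodes the stress factor CHOP. *Calr3*, the third calreticulin gene, stood at 1.597 ± 0.11 RPKM.

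**Figure D1:**
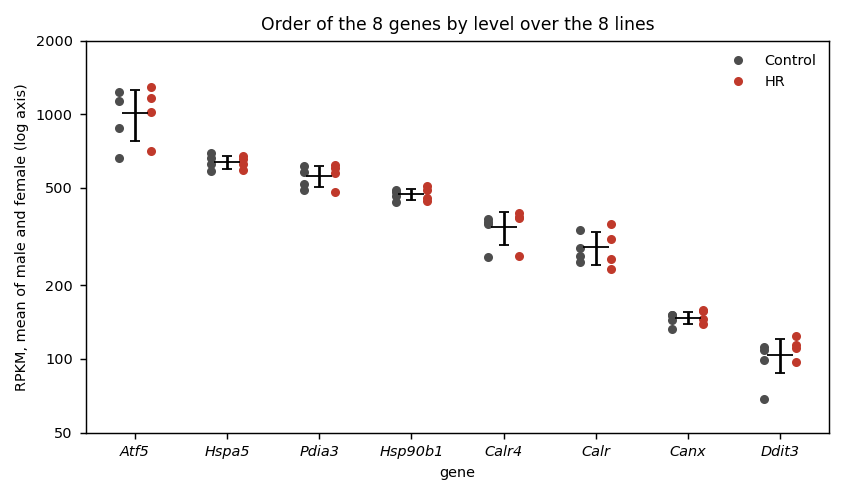
RPKM of the 8 genes on a log axis, 1 point per line (mean of its male and female library), with the mean and SD over 8 lines as a bar. *Atf5* is highest at 1014 RPKM and *Ddit3* lowest at 104.2, and Control and HR lines overlap for every gene.

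The order was taken from these same values, so the pairs of neighbours and their direction were not set beforehand. The tests below therefore describe how steady each step was over lines and give no independent support to the order. Of 7 pairs, 6 had an adjusted p under 0.05 when the signs of the 8 line differences were permuted (exact, two-sided, adjusted over the 7 pairs, smallest possible unadjusted p 0.0078). *Atf5* exceeded *Hspa5* by 0.62 ± 0.41 on the log2(RPKM + 1) scale in 7 of 8 lines (exact adjusted p = 0.0182), and *Hspa5* exceeded *Pdia3* by 0.19 ± 0.17 in 7 of 8 (exact adjusted p = 0.0182). The pair that did not pass was *Calr4* and *Calr*, at 0.28 ± 0.39 in 6 of 8 lines (exact adjusted p = 0.0859). Without line 5 all 7 pairs passed, and in females alone 5 did.

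*Atf5* varied most over lines among the abundant genes, and line 5 and line 3 were its low end. In Control males it stood at 1869 CPM in line 1, 1669 in line 2, 1142 in line 4 and 1242 in line 5. In Control females the values were 1578, 1539, 1314 and 675.2 CPM in the same order of lines. The HR males of lines 3, 6, 7 and 8 had 1144, 1427, 1768 and 1737 CPM, and the HR females 911.8, 1453, 1530 and 1874. The highest library was 2.78-fold above the lowest, and the groups overlapped, with Control at 675.2 to 1869 and HR at 911.8 to 1874 CPM.

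*Calr4* was low in the same lines. Control males of lines 1, 2, 4 and 5 had 609.7, 652.3, 555.4 and 523.9 CPM, and Control females 653.7, 653.6, 660.2 and 399.9. In HR males of lines 3, 6, 7 and 8 it stood at 475.6, 599.2, 610.7 and 621.6 CPM, and in HR females at 451.3, 692.9, 713.5 and 750.3. Both line 3 libraries were the lowest of their HR groups and both line 5 libraries the lowest of their Control groups.

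*Calr* showed another order. Control males of lines 1, 2, 4 and 5 had 414.4, 505.7, 586.1 and 718.2 CPM, and Control females 510.6, 383.2, 417.2 and 478.7. HR males of lines 3, 6, 7 and 8 had 693.3, 598.5, 452.5 and 496.3 CPM, and HR females 411.0, 656.9, 373.3 and 417.8. The males of lines 5 and 3, low for *Calr4*, were the 2 highest libraries for *Calr*.

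*Hspa5*, *Hsp90b1*, *Canx* and *Pdia3* were more even than the 2 calreticulins, of which *Calr* spanned 1.92-fold and *Calr4* 1.88-fold. *Hspa5* ran from 1294 CPM in the HR male of line 3 to 1788 in the Control female of line 5, which is 1.38-fold. *Hsp90b1* spanned 1103 to 1409 CPM (1.28-fold), *Canx* 523.8 to 672.6 (1.28-fold) and *Pdia3* 1169 to 1640 (1.40-fold). *Ddit3*, the least abundant, had the widest span, from 25.29 CPM in the Control female of line 5 (397 counts) to 98.54 in the HR female of line 7, 3.90-fold.

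**Figure D2:**
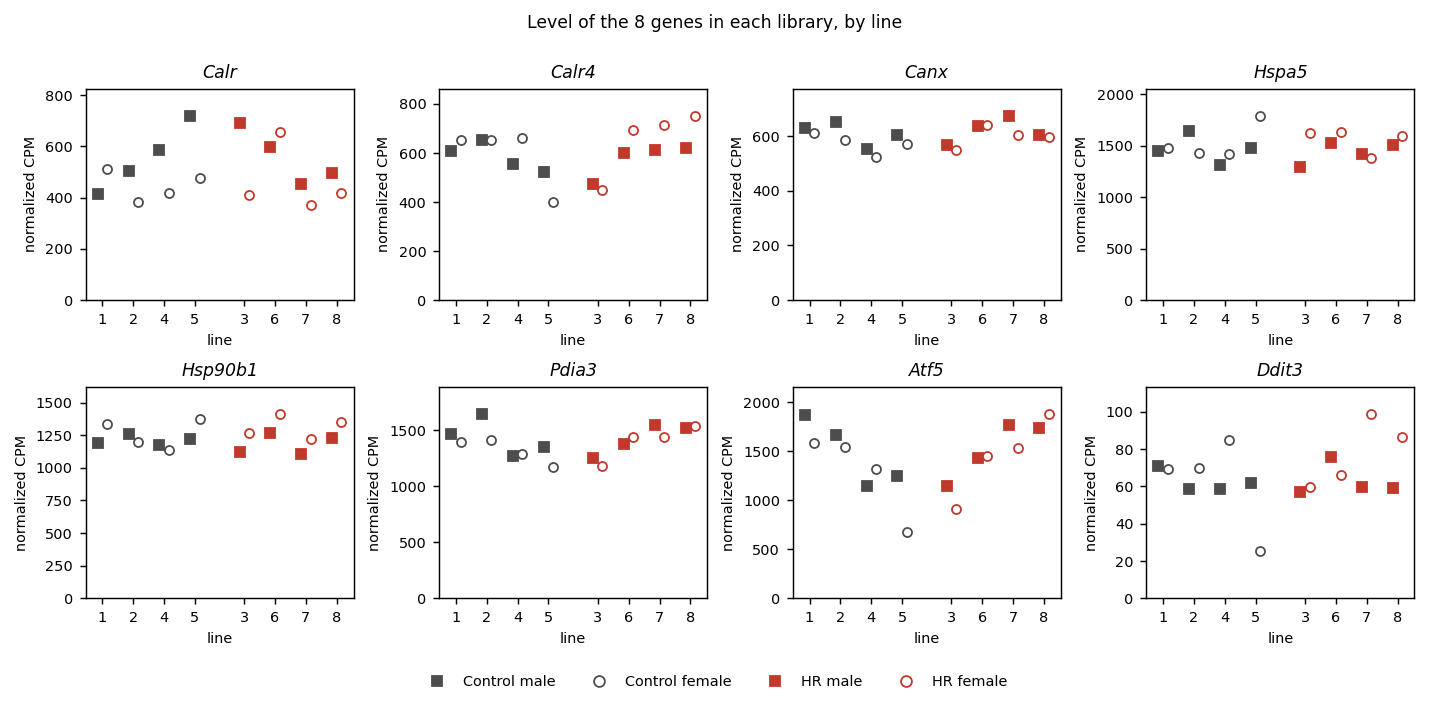
Normalized CPM of each gene (vertical axis, from 0) in the 16 libraries, by line (horizontal axis), with squares for males, circles for females, grey for Control and red for HR. The line 5 female is the lowest library for *Calr4* (399.9), *Atf5* (675.2) and *Ddit3* (25.29) and the highest for *Hspa5* (1788).

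The first comparison asked whether breeding for wheel running went with other levels of these genes. None of the 8 differed between HR and Control lines by edgeR's quasi-likelihood test (0 of 8 with an adjusted p under 0.05, and 0 of 8 with an unadjusted p under 0.05), where 4 of 16757 genes (0.0239%) did. DESeq2 also called 0 of 8, among 30 genes in all. *Calr* stood at 512.5 ± 96.34 CPM in HR and 501.8 ± 68.74 in Control lines (SD, n = 4 line means each), *Calr4* at 614.4 ± 102 and 588.6 ± 86.44, and *Hspa5* at 1498 ± 82.45 and 1501 ± 111.8. The median log2 fold change of the 8 was 0.04, beside 0.0026 over all genes tested.

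The intervals of this fit treat the 16 libraries as separate, although the male and the female of a line are paired. The tightest was that of *Canx*, 0.04 with a 95% interval from -0.07 to 0.16, followed by *Hsp90b1* (0.01, from -0.12 to 0.14) and *Hspa5* (-0.00, from -0.16 to 0.15). For *Ddit3* the estimate was 0.16 (from -0.23 to 0.56) and for *Atf5* 0.11 (from -0.29 to 0.50), so a change of such a size in these 2 genes was not detectable here. With the counts of each line summed, the interval was -0.17 to 0.21 for *Canx*, -0.20 to 0.20 for *Hsp90b1*, -0.24 to 0.19 for *Hspa5*, -0.42 to 0.56 for *Atf5* and -0.18 to 0.49 for *Ddit3*. With line as the unit, by line sums or by limma-voom with a random effect of line, 0 genes were called in all, in place of 4, with 207 and 270 at an unadjusted p under 0.05. *Calr*, *Calr4*, *Hspa5*, *Hsp90b1*, *Pdia3* and *Atf5* changed sign under at least 1 alternative.

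**Figure D3:**
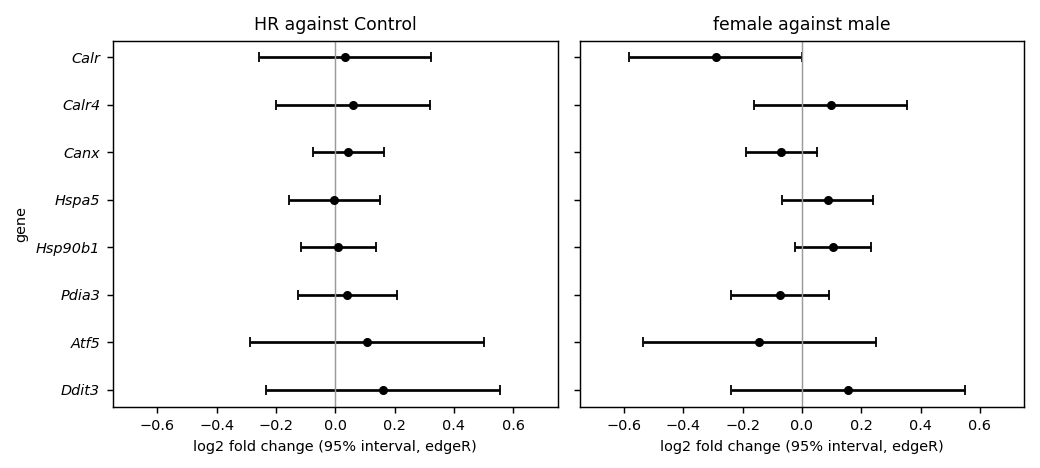
Log2 fold change of each gene with its 95% interval from edgeR, HR against Control (left) and female against male (right). Every interval at left spans 0, with *Ddit3* at 0.16 as the largest estimate, and at right *Calr* lies lowest at -0.29.

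The sexes were compared over the same libraries. The test called 0 of 8 genes, where 31 of 16757 (0.185%) were called, and 0 of 8 with line as a replicate block, where 90 (0.537%) were. *Calr* had the largest difference, lower in females by a log2 fold change of -0.29 (SE 0.14, edgeR adjusted p = 0.617, and 0.225 with the block), with the female library lower in 6 of 8 lines. For each gene the signs of the 8 female minus male differences were also permuted exactly, two-sided, a test added after the values had been seen. Of its 8 unadjusted p, 2 were under 0.05, where 2705 of 16757 genes (16.1%) were: *Canx*, lower in females in 7 of 8 lines (-0.07 ± 0.06, exact p = 0.0156), and *Hsp90b1*, higher in females in 6 of 8 (0.10 ± 0.10, exact p = 0.0312). Neither was called in the fit across all genes. On log2(RPKM + 1) *Canx* was lower in females in 5 of 8 lines (-0.01 ± 0.06, exact p = 0.758), while *Hsp90b1* was higher in 7 of 8 (exact p = 0.0156), as was *Hspa5* (exact p = 0.0391, against 0.211 on log2 CPM). The share of all genes by this permutation on RPKM was not computed. In a limma fit on that scale with line as a block, the median over all genes was 0.038 higher in females. It gave 3104 of 16858 genes an unadjusted p under 0.05. Of its 325 called genes 311 were higher in females, and 0 of the 8 genes were called. For the sex by linetype interaction, 0 of 8 genes and 0 of 16757 (0.0%) were called, with 77 at an unadjusted p under 0.05 and 0 called by DESeq2.

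The 2 calreticulins can be set against each other within a library, where depth and a scaling common to all genes cancel. A factor between counts and RPKM that differs by gene does not cancel. The ratio of *Calr4* to *Calr* RPKM in males was 1.47, 1.30, 0.961 and 0.729 in Control lines 1, 2, 4 and 5 and 0.691, 1.01, 1.36 and 1.27 in HR lines 3, 6, 7 and 8. In females it was 1.31, 1.75, 1.65 and 0.847 in the Control lines and 1.13, 1.09, 1.98 and 1.86 in the HR lines. It was below 1 in 4 libraries, the males of lines 3, 4 and 5 and the female of line 5.

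On the log2(RPKM + 1) scale, *Calr4* minus *Calr* was higher in females (0.48 ± 0.44) than in males (0.09 ± 0.41, SD, n = 8 lines), by 0.40 and in 7 of 8 lines. Exact permutation of the signs, two-sided, gave p = 0.0234, and 0.0469 adjusted over the 2 tests of this difference. On log2 CPM the difference was 0.36 and the adjusted value 0.0625, so the call rested on the RPKM scale. With 1 line left out the adjusted value was 0.0312 to 0.0938, under 0.05 only without line 1. The call after adjustment was thus lost without any of the other 7 lines. HR and Control lines differed by 0.04 (0.30 ± 0.43 against 0.26 ± 0.42, n = 4 lines each, exact permutation p = 0.914, smallest possible 0.0286), and the sign turned without line 5, 7 or 8. The summed gland markers were lower in females in 6 of 8 lines (-0.67 ± 1.60 log2) and the summed neuron markers in 7 of 8 (-0.20 ± 0.21). The 1 gland marker called for sex, *Obp1a*, went the other way (log2 fold change 2.57, edgeR with line as a replicate block, adjusted p = 0.044). It stood at 162.3 ± 245.6 CPM in males and 1171 ± 1954 in females. The neuron sum was mostly *Omp* (2143 ± 359.8 CPM in males, 1901 ± 366.8 in females) and *Gnai2* (1235 ± 228.4 and 991.5 ± 176.3). *Gnao1* was alike in both sexes, at 415.5 ± 36.73 and 416.1 ± 70.66 CPM, and *Trpc2* added 0. A lower sum is thus not a lower level of every neuron marker. The summed markers of other leukocytes (-0.33 ± 0.15) and of erythroid cells (-0.73 ± 0.62, from *Alas2* alone, with 6 of 7 markers at 0) were lower in 8 of 8. *Cd74*, at 493.6 to 950.1 CPM, was the largest part of the leukocyte sum (604.2 to 1133 CPM). The median log2 fold change of the 5 leukocyte markers was 0.033, with *Cd74* at -0.308 and *Ptprc* at 0.184. The part of these cell types in the sex difference was not tested.

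**Figure D4:**
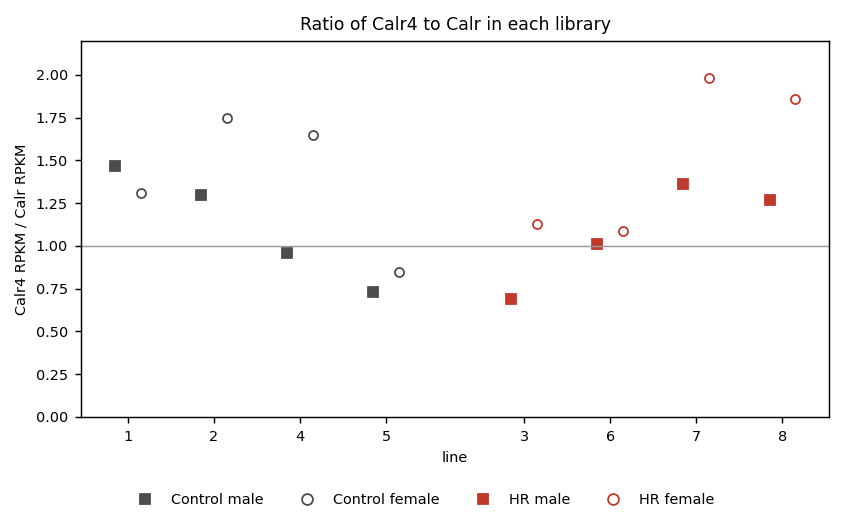
Ratio of *Calr4* to *Calr* RPKM (vertical axis, from 0) in each library by line, with squares for males, circles for females, grey for Control and red for HR, and a line at 1. The ratio runs from 0.691 (HR male, line 3) to 1.98 (HR female, line 7), and the female lies above the male in every line but line 1.

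Lines within a linetype were compared because drift and founder effects act on each line alone. *Atf5* (edgeR F test, adjusted p = 0.0275) and *Calr4* (adjusted p = 0.0417) were called, 2 of 8. Over all genes 4739 of 16757 (28.3%) were called, and 28.7% of the genes at least as abundant as *Ddit3*, so the share among the 8 was close to the background. The adjusted p of the others ran from 0.0683 (*Pdia3*) to 0.572 (*Ddit3*). With 1 line left out, 0 of 8 were called without line 2 or without line 3, 1, *Atf5*, without line 1, 7 or 8, and both without line 4, 5 or 6. Over all genes the share called was 18.2% without line 2 and 19.4% without line 3. DESeq2 called 5 of 8, adding *Calr*, *Canx* and *Pdia3*, where it called 43.2% of all genes.

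Levels were then set beside markers of neurons and of glands over the 8 lines, with 16 relations adjusted together. This comparison was added after the values had been seen. The share of all genes related to either sum was not computed, so the relations cannot be read as particular to these genes. The 2 sums also ran largely opposite to each other over lines. Line 8 had the highest neuron sum (12.083, log2) and the lowest gland sum (11.873). Line 5 had the lowest neuron sum (11.456) and the highest gland sum (16.836). The relations of a gene to the 2 sums are therefore not separate results. *Atf5* moved with the summed neuron markers (*r* = 0.943, permutation adjusted p = 0.00476; rho = 0.905, adjusted p = 0.0243), with *r* = 0.919 in males, 0.957 in females and 0.909 without the 2 farthest lines. *Pdia3* did so too (*r* = 0.931, permutation adjusted p = 0.00476; rho = 0.929, adjusted p = 0.0243; 0.945 in males, 0.89 in females, 0.914 without the 2 farthest lines). *Calr4* gave *r* = 0.891 (permutation adjusted p = 0.00701; rho = 0.833, adjusted p = 0.0351; 0.871 in males, 0.91 in females, 0.829 without the 2 farthest lines).

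*Calr* rose with the summed gland markers (*r* = 0.844, permutation adjusted p = 0.0381; rho = 0.905, adjusted p = 0.0243; 0.964 in males, 0.61 in females, 0.951 without the 2 farthest lines). With neuron markers its *r* was -0.735 (permutation adjusted p = 0.084; rho = -0.762, adjusted p = 0.0735; -0.83 in males, -0.215 in females, -0.67 without the 2 farthest lines). *Atf5* fell as gland markers rose (*r* = -0.821, permutation adjusted p = 0.0437; rho = -0.857, adjusted p = 0.0286; -0.937 in males, -0.597 in females, -0.744 without the 2 farthest lines). *Calr4* and *Pdia3* had the same rho with gland markers, -0.857 (permutation adjusted p = 0.0286), with *r* of -0.711 (adjusted p = 0.084; -0.792 in males, -0.535 in females, -0.568 without the 2 farthest lines) and -0.8 (adjusted p = 0.0588; -0.809 in males, -0.602 in females, -0.707 without the 2 farthest lines). For *Hspa5* and *Hsp90b1* the *r* with neuron markers was -0.084 and 0.017 (permutation adjusted p = 0.893 and 0.968; rho = -0.143 and -0.119, both with an adjusted p of 0.793). Within a sex the *r* of *Hspa5* was 0.686 in males and -0.598 in females, and that of *Hsp90b1* 0.232 and -0.208.

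Divided by the summed neuron markers, the SD over lines on the log2 scale became 0.168 for *Atf5*, from 0.365, 0.108 for *Calr4*, from 0.231, and 0.116 for *Pdia3*, from 0.132. For *Ddit3* it became 0.228, from 0.306. It rose for *Hspa5* to 0.251, from 0.0869, for *Calr* to 0.41, from 0.212, for *Canx* to 0.201, from 0.0893, and for *Hsp90b1* to 0.24, from 0.0781. Over libraries in place of lines, the SD of *Pdia3* did not fall (0.147, from 0.142). The neuron sum itself ran from 11.456 (line 5) to 12.083 (line 8) on the log2 scale. Dividing by it adds spread to a gene unrelated to it and can lower the spread of a gene that moves with it. These SD therefore restate the *r* above and are no further result. The neuron sum was lowest in the Control female of line 5 (2285 CPM) and highest in the Control male of line 2 (4508 CPM). The gland sum was highest in the males of line 5 (178100 CPM) and line 3 (157300 CPM), where *Calr* was also highest. Whether cell make-up accounts for the levels was not tested.

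**Figure D5:**
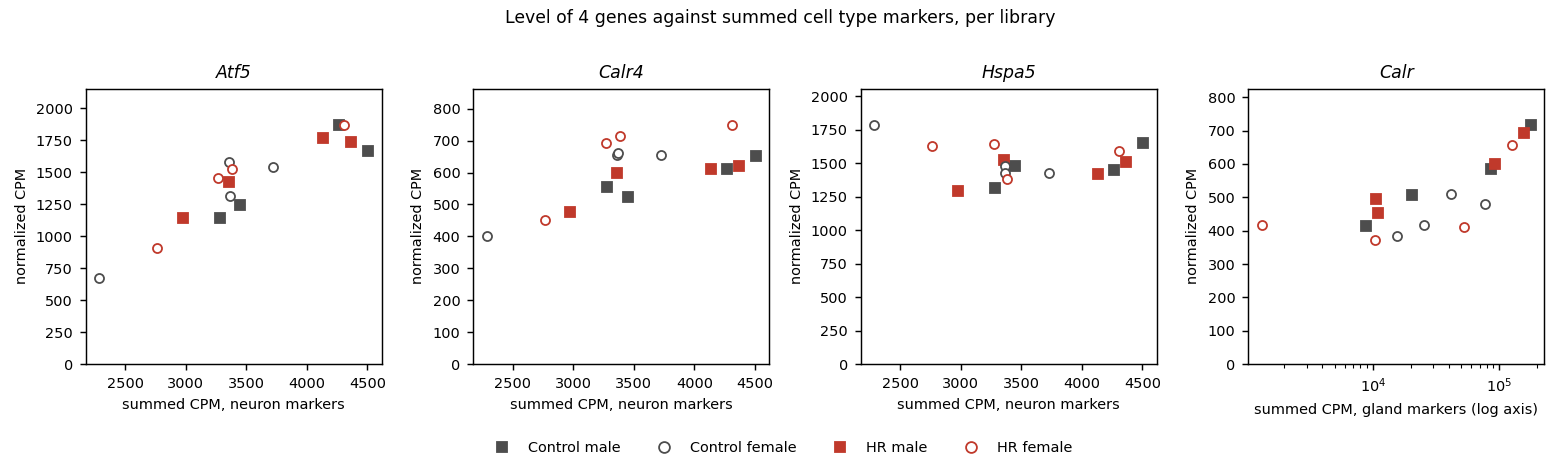
Normalized CPM of 4 genes in each library (vertical axes, from 0) against the summed CPM of neuron markers (*Atf5*, *Calr4*, *Hspa5*) or of gland markers on a log axis (*Calr*), with squares for males, circles for females, grey for Control and red for HR. *Atf5* and *Calr4* rise from 675.2 and 399.9 CPM in the library with the fewest neuron markers, while *Hspa5* is highest there at 1788.

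The closest pairs among the 8 genes are given as a description over 8 lines that share their libraries. *Atf5*, *Calr4* and *Pdia3* had pairwise *r* of 0.938, 0.928 and 0.88. *Hspa5* and *Hsp90b1* had an *r* of 0.898 (0.765 in males, 0.747 in females). *Ddit3* had 0.836 with *Calr4* and 0.798 with *Atf5*, which were 0.862 and 0.858 in females but 0.283 and 0.267 in males, and *Canx* had 0.749 with *Pdia3*. Genome-wide, the 5 genes most like *Calr4* by the lower of the male and the female *r* (8 libraries each) were *Meaf6* (*r* = 0.959 in males and 0.993 in females), *Elovl4*, *Dynll2*, *Uxt* and *Dlx3*. Those most like *Hspa5* were *Yme1l1*, *Vmn2r33*, *Atg5*, *Nkrf* and *Dnajb9*, the last of which encodes an ER cochaperone of BiP.

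The wider pathway gave no call between linetypes or sexes. In the 10 lists of ER, stress and receptor trafficking genes, 0 genes were called in either comparison by edgeR, also with the replicate block for sex. Over lines, where the background was 28.3%, the lectin chaperone cycle had 5 of 10 called, the receptor choice and trafficking genes 7 of 12, the isomerases 8 of 21 and the UPR sensors 4 of 14. The HSP70 system had 3 of 13, the PERK targets 4 of 19, ER-associated degradation 3 of 16, translocation 3 of 18, cytosolic heat shock genes 2 of 11 and the HSP90 partners 0 of 3.

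Named members of these lists covered wide and narrow ranges over the 16 libraries. *Clgn*, a calnexin homologue, ran from 171.8 to 368.7 CPM (edgeR F test over lines, adjusted p = 0.0281), and *Uggt1*, the folding sensor of glycoproteins, from 276.5 to 402.8 (adjusted p = 0.0402). *Xbp1*, the factor spliced by the sensor IRE1, ran from 150.3 to 286.8 CPM (adjusted p = 0.00244), and it is also among the plasma cell markers. *Rtp2*, which helps receptors to the surface, ran from 162.6 to 324.3 CPM (adjusted p = 0.000494). *Ero1l*, which reoxidizes disulfide isomerases, ran from 51.13 to 240.0 CPM (adjusted p = 0.0013), and *Derl3*, a channel protein of degradation, from 2.073 to 78.04 (adjusted p = 0.0072).

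Some reads can be shared with other entries of the annotation. *Hsp90b1* (chr10:86690209-86705509, minus strand) had 93.27% of its 75-base words in no other gene, and *Atf5* (chr7:44812256-44816658, minus strand) 99.45%. The other 6 genes had 100%. *Ddit3* (chr10:127290774-127296288, plus strand) shares 68 exon bases with *Mars* and 13 with *Gm4189* on the other strand, and 105 with a second entry of its own name. *Pdia3* shares 18 with *Catsper2* on the other strand.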

How the data were processed

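The authors depleted ribosomal RNA, made directional libraries and sequenced single-end reads of 75 nucleotides, which they aligned to GRCm38 with STAR 2.6.1d (per the submitters' processing notes) without mismatches or multiple locations. The deposited counts are reads per gene without normalization. The counting tool, annotation and use of strand are not given in the sources used here. The deposited RPKM are the authors' values per gene length and library size, from Cufflinks. In males, 20.2% to 22.5% of reads fell on no gene and were left out. Replicates are separate pools of mice, and within a linetype and sex no 2 libraries were the same library deposited again, with a chi-square over its degrees of freedom of 32.5 to 818.

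Counts were tested in R 4.3.3 with edgeR 4.0.16 (quasi-likelihood test, TMM, model of sex and linetype, Benjamini-Hochberg adjustment over all 16757 genes tested, threshold 0.05). Lines were tested nested in linetype. DESeq2 1.42.0 and limma 3.58.1 served as alternatives, and the tests were checked on simulated data. Low counts were filtered with filterByExpr (minimum count 10) by linetype and sex. A filter set by the model was also run after these results were known, and left 16507 genes for the linetype, sex and line tests and the same calls among the 8 genes. Log2 CPM used a prior count of 2 and log2 RPKM a pseudocount of 1.

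The 8 genes and the gene lists were chosen with earlier results of these data known. Named genes are the 8, *Calr3*, of each list up to 4 called genes per test or else those with the smallest p, and the 5 genes most like *Calr4* and *Hspa5*. The text gives a selection of the called list genes, picked after their values were seen. The relations to markers, the values per neuron marker, the sign-flip tests of single genes for sex and the count of index tags were also added after values had been seen. The line number pairs the male and female library, which come from 1 line per the labels, and their deviations correlated across genes at 0.312 to 0.701 in the 8 lines. Promoter windows are RefSeq's on GRCm38.p6 and gene positions GENCODE M21's on GRCm38.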

Additional observations from a re-analysis of the deposited data

Results flagged for a closer look

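In 36 sets of 4 libraries of 1 linetype and sex, the gap of the outermost library to its neighbour was set against the range of the set (critical value 0.829 for 4 libraries), and chance marks about 1 in 20 such sets. In 6 sets the gap was larger. The Control female of line 5 stood apart for *Calr4* (gap over range 0.98, low), *Hspa5* (0.834, high) and *Ddit3* (0.831, low). That library also had the fewest counts on genes (15998552). Its summed markers of mature (2285 CPM) and immature neurons (104.3 CPM) were the lowest of all libraries. Its summed markers of plasma cells (379.7 CPM) and ciliated cells (125.6 CPM) were the highest. Line 3 stood low for *Calr4* in HR males (0.863) and HR females (0.843). The HR male of line 6 stood high for *Ddit3* (0.842). The part of cell make-up in these gaps was not tested.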

How the results depend on the processing

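Of 422 alternative values, 386 kept their direction and their side of the threshold, 20 reversed, 7 fell short of a threshold the reported value passed, 3 passed one it missed and 6 moved by more than 1.5 times. No alternative called any of the 8 genes for linetype, sex or the interaction. The count called over lines was 5 by DESeq2, where *Calr* (adjusted p = 0.0468), *Canx* (0.000667) and *Pdia3* (5.32e-05) were added, and 0 to 2 when 1 line was left out. Without 1 line the adjusted p of *Calr4* reached 0.193 and that of *Atf5* 0.0882. For HR against Control, log2 fold changes reversed when 1 line was left out for *Calr* (range -0.09 to 0.123), *Calr4* (-0.04 to 0.171), *Hspa5* (-0.045 to 0.039), *Hsp90b1* (-0.026 to 0.034) and *Atf5* (-0.036 to 0.248). In males alone they reversed for *Calr4* (-0.027), *Hsp90b1* (-0.04) and *Pdia3* (-0.011), and for *Hspa5* in females alone (0.034) and by limma-voom with a random effect of line (0.001). *Calr4* minus *Calr*, HR minus Control, ran from -0.162 to 0.202 without 1 line (-0.094 without line 7, -0.063 without line 8), and female minus male from 0.342 to 0.477, with a p adjusted over the 2 tests of 0.0312 to 0.0938 (0.0625 on log2 CPM). The filter set by the model, added after the results were seen, changed no call. With line as a replicate block, 90 genes in place of 31 were called for sex and 0 of the 8. For linetype 0 genes were called in all with line as the unit, against 4. DESeq2 called 30 for linetype, 185 for sex against 31 and 7247 over lines against 4739. The causes were not tested. The 4 lines of a linetype and 1 pool per line and sex limit what differences could be seen.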
